A study of Mus musculus with 54 samples.

Results

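A set of 8 chemokine receptor and chemokine genes was followed here across cultured and primary intestinal group 2 innate lymphoid cells (ILC2s): the receptor genes Ccr1, Ccr2, Ccr4, Ccr7, Ccr8, Ccr9 and Cxcr6, and the chemokine gene Ccl1. They were taken by symbol from the 2 RNA tables of the series, in which 10990 genes were listed in either table. All 8 genes were listed in the culture table of 10799 genes, and 7 in the genotype table of 10176 genes, where Ccr1 was not listed. The set was chosen by name, without a threshold on any measured value, but with earlier results of these data known. Counts of members beside shares of all genes are thus description only.

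The study asked what Rxrg, which encodes a retinoid X receptor, does in small-intestinal ILC2s of C57BL/6 mice aged 8 to 12 weeks, with both sexes pooled per the labels. In the culture experiment, WT cells were kept with IL-2, IL-7 and IL-25, or with IL-2 and IL-7 alone (none), for 4, 48 or 72 h, and each of these 6 groups had 4 Smart-seq2 libraries. IL-2 and IL-7 were thus shared by all culture groups, and IL-25, a cytokine made by epithelial tuft cells, was the added agent. In the genotype experiment, iILC2 and nILC2 from KO mice (Rxrg-/- in the series text, with the abbreviation cKO also in the labels and no Cre driver named) and from CTRL mice (Rxrg+/+, labelled WT) formed 4 groups of 4 libraries. All 16 of these carry the labels IL25 and 48h, which KO and CTRL cells thus share, while the protocol text speaks of mice given IL-25 or PBS for 2 days. What the prefixes i and n stand for is not written in the labels, nor how the 2 populations were gated.

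Chemokine receptors are G protein coupled receptors that direct lymphocytes along gradients of their chemokine ligands. Ccr9 and its ligand Ccl25 are known for homing to the small intestine, Ccr7 with Ccl19 and Ccl21 for entry into lymphatics and lymph nodes, Ccr2 with Ccl2 for exit from bone marrow and entry into inflamed tissue, Ccr4 with Ccl17 and Ccl22 and Ccr8 with Ccl1 for type 2 lymphocytes, and Cxcr6 with Cxcl16 for lymphocytes resident in tissues. Ccr1 binds several inflammatory chemokines, among them Ccl3 and Ccl5.

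Values are TPM as deposited, a unit of transcript abundance scaled for gene length and for the total of each library, so depth is unknown. Tests are from limma fits of log2(TPM + 1) across all genes with 1 TPM or more in 4 or more libraries of their table, 10548 in culture and 10069 in the genotype table. A gene was called at a Benjamini-Hochberg adjusted p under 0.05 over all of these, and a fold change on this scale understates the change of low genes. All listed members passed that filter. Ccr1 passed it in culture only through the groups with IL-25 at 48 and 72 h, and Ccl1 in the genotype table only through nILC2, so no count of members that passed supports anything here. The labels do not say whether libraries of a group came from separate animals, so p-values measure the spread between these libraries, which may be technical. In these bulk samples, fewer cells of a type and less RNA per cell cannot be told apart.

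Rxrg was listed at 0 to 0.48 TPM in iILC2 KO and at 1.26 to 1.83 TPM in iILC2 CTRL, and at 1.27 to 3.12 TPM in nILC2 KO and 12.2 to 18.4 TPM in nILC2 CTRL. All 10 ILC2 markers (Gata3, Rora, Il7r, Il1rl1, Il17rb, Klrg1, Il5, Il13, Areg and Id2) were listed in both tables and no neutrophil, eosinophil, basophil or mast cell marker was. Of 10 T cell markers 2 were listed in each table, of 8 monocyte and macrophage markers 1 in culture and 2 in the genotype table, and Csf1r, Adgre1, Lyz2, Trac and Cd4 were in neither. Of 6 markers each, culture had 4 for ILC3, 3 for NK cell and ILC1, and 2 each for dendritic, epithelial and red blood cells. For B cells it had 1 of 6. The genotype table had 2 each for dendritic and epithelial cells and 1 for each of the others. The genotype libraries did not all go with the pooled sexes of their labels: summed TPM of the Y-linked genes Eif2s3y, Ddx3y, Kdm5d and Uty was 0 to 0.59 in replicates 1 and 2 of both KO groups and in replicate 2 of both CTRL groups, and 93.4 to 142 in the other 10 libraries. All 24 culture libraries had 94.8 to 168. Since the same replicate numbers lacked this signal in iILC2 and nILC2 of each genotype, it was balanced between the populations but not between KO and CTRL.

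In culture, the members took 4 courses. Ccr1 and Ccr7 were low without IL-25 and rose with it, Ccr1 by 48 h and Ccr7 already at 4 h. Ccr2 and Ccr9 rose with time in cells without IL-25 and were lower with IL-25 at all 3 times. Ccr4 and Ccl1 were highest at 4 h and fell with time in either medium, with Ccr4 raised further by IL-25 at 4 h. Ccr8 and Cxcr6 were high in every group, with IL-25 effects between -0.38 and 0.47 on the log2 scale. Against none, IL-25 was followed by 6 called members at 4 h (3 higher, 3 lower), when 40.3% of all genes were called, 13.4% higher and 26.9% lower. At 48 h 6 members were called (3 higher, 3 lower) beside 50.1% of all genes, 21.4% higher and 28.7% lower. At 72 h 7 were called (4 higher, 3 lower) beside 48.5% of all genes, 15.3% higher and 33.2% lower. After rescaling by the median of ratios, higher genes made up 51.5% of all calls at 4 h (33.3% before it), 51.1% at 48 h (42.7%) and 55.1% at 72 h (31.5%). The libraries with and without IL-25 did not overlap in 6 of 8 members at 4 h (35.9% of all genes), 5 at 48 h (44.2%) and 7 at 72 h (43.3%). The median log2 fold change of the 8 members was -0.00, -0.04 and 0.25 at the 3 times, against -0.12, -0.09 and -0.20 over all genes tested.

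**Figure D1:**
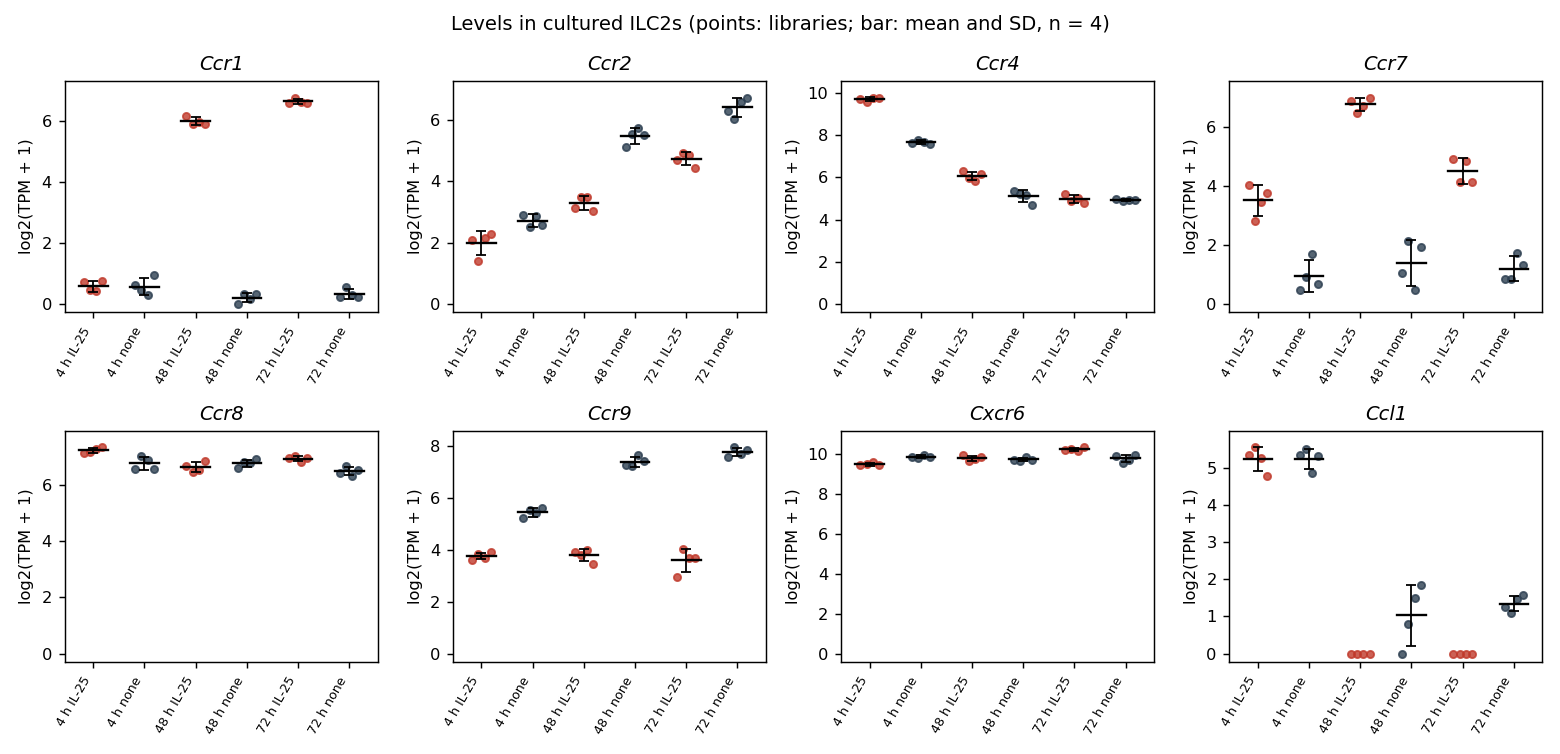
Level of each member in the 24 culture libraries, as log2(TPM + 1) on the y axis, by time and by IL-25 (red) or none (dark blue). Points are libraries and bars are the mean and SD of n = 4; groups listed at 0 in every library have points only. Ccr1 and Ccr7 separate by IL-25 from 48 h and 4 h on, Ccr9 and Ccr2 are higher without IL-25, and Ccl1 is listed at 0 with IL-25 at 48 and 72 h.

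Ccr1 had 0.63, 0.36, 0.34 and 0.69 TPM with IL-25 and 0.53, 0.36, 0.23 and 0.91 TPM without it at 4 h. At 48 h its 4 libraries with IL-25 held 70.5, 58.8, 61.1 and 57.7 TPM, against 0, 0.26, 0.13 and 0.25 TPM without. At 72 h they held 93.9, 107, 96.8 and 93.5 TPM with IL-25, against 0.16, 0.48, 0.23 and 0.17 TPM without. Every library with IL-25 at the later times lay far above every library without it, and at 4 h the groups overlapped. Ccr1 thus had a log2 fold change of 0.01 (SE 0.15, adjusted p = 0.97) at 4 h, 5.77 (SE 0.15, adjusted p = 6.63e-20) at 48 h and 6.30 (SE 0.15, adjusted p = 1.59e-20) at 72 h. With IL-25, Ccr1 was also higher at 72 h than at 48 h (97.7 ± 6.19 and 62.0 ± 5.81 TPM, SD, n = 4 each; log2 0.65, adjusted p = 0.00149), a call that did not pass with a pseudocount of 0.1 TPM (adjusted p = 0.191). Of its levels, those at 72 and 48 h with IL-25 stood apart from each other and from the other 4 groups, which overlapped in turn. Cd68, the 1 listed marker of 8 for monocytes and macrophages, in which Ccr1 is also known, had 2.52 to 5.11 TPM with IL-25 and 1.04 to 3.51 TPM without at 48 h, and 3.84 to 7.23 and 0.49 to 1.28 TPM at 72 h; its part in the result was not tested.

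Ccr7, the receptor for lymph node entry, had 15.2, 5.99, 9.86 and 12.5 TPM with IL-25 at 4 h, against 0.40, 0.90, 2.23 and 0.60 TPM without. The peak came at 48 h, with 117, 88.5, 103 and 126 TPM with IL-25 and 1.07, 3.42, 0.39 and 2.78 TPM without. By 72 h the level with IL-25 was 29.4, 16.4, 27.4 and 16.5 TPM, and without it 0.82, 0.81, 2.35 and 1.5 TPM. The groups with and without IL-25 did not overlap at any time, while the 3 groups without IL-25 overlapped each other. For Ccr7 the log2 fold change was 2.56 (SE 0.33, adjusted p = 7.5e-07) at 4 h, 5.37 (SE 0.33, adjusted p = 6.36e-13) at 48 h and 3.30 (SE 0.33, adjusted p = 6.89e-09) at 72 h. Ccr7 fell between 48 and 72 h with IL-25 (log2 -2.26, SE 0.33, adjusted p = 6.49e-06). The difference of the 2 IL-25 effects at these times was called for Ccr7 (log2 -2.06, adjusted p = 0.00295) and not for Ccr1 (log2 0.53, adjusted p = 0.101), which was called after rescaling by the median of ratios (0.0398), after quantile normalization (0.0438) and with array weights (0.0488). Without IL-25, Ccr7 at 48 h against 4 h differed by log2 0.45 (adjusted p = 0.232), a value that was called without replicate 3 of 48 h (log2 0.76, adjusted p = 0.0419).

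The promoters of Ccr1 and Ccr9 are shown because of their IL-25 differences against none at 48 h. These were the largest positive (Ccr1) and the largest negative (Ccr9) of the 7 receptor genes. Both genes lie in a cluster on chromosome 9, with other genes between them. Each run holds 250 bases before and 50 after the start site, 5′ to 3′ on the gene's strand, from RefSeq (GRCm38.p6, the assembly of mm10), at chr9:123968643-123968942 on the minus strand for Ccr1 and chr9:123766961-123767260 on the plus strand for Ccr9. Neither held any of the 5 motifs searched, so both are in lower case.
Ccr1: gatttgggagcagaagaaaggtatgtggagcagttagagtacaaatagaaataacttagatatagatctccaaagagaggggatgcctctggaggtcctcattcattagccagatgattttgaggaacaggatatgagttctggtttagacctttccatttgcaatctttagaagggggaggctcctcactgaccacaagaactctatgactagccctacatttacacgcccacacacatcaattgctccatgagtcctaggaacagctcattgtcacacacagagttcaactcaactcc
Ccr9: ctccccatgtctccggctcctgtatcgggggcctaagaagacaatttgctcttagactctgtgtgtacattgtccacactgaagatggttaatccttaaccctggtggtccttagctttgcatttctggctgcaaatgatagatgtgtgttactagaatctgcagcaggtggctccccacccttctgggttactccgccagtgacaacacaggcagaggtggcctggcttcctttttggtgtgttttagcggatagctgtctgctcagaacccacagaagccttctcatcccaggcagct

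Ccr9, the small intestine homing receptor, ran opposite to Ccr1. At 4 h it had 11.2, 13.1, 11.8 and 13.9 TPM with IL-25 and 35.7, 45.0, 41.9 and 47.5 TPM without. At 48 h it held 13.8, 12.9, 14.7 and 9.89 TPM with IL-25, against 153, 147, 198 and 167 TPM without. At 72 h the values were 6.79, 15.2, 11.8 and 11.8 TPM with IL-25 and 186, 243, 205 and 225 TPM without. The 3 groups with IL-25 overlapped each other and lay below all libraries without it. On the log2 scale Ccr9 differed by -1.68 (SE 0.16, adjusted p = 6.61e-09) at 4 h, -3.60 (SE 0.16, adjusted p = 1.61e-15) at 48 h and -4.16 (SE 0.16, adjusted p = 8.21e-17) at 72 h. Most of that widening lay in the cells without IL-25, where Ccr9 rose by log2 1.94 at 48 h against 4 h (adjusted p = 1.47e-10), while with IL-25 the same difference was 0.03 (adjusted p = 0.894). The red blood cell markers Hba-a1 and Hba-a2, 2 of 6 on that list, moved with it: their sum was 8.71 to 19.4 TPM with IL-25 and 479 to 553 TPM without at 48 h, and their part in the result was not tested. Hbb-bs, Hbb-bt and Alas2 were not listed. The 2 listed T cell markers, Cd3e and Cd3g of 10, summed to 24 to 29 TPM with IL-25 and 82.4 to 129 TPM without at 48 h, and the 10 ILC2 markers to 3885 to 4441 and 2638 to 2939 TPM. Epcam and Krt18, the 2 listed epithelial markers of 6, summed to 35.1 to 40.5 and 95.9 to 113 TPM. Of these 1 was called higher and 1 lower. Cd79b, the 1 listed B cell marker of 6, had 71.3 to 91.5 and 43.5 to 49.8 TPM. The part of these markers in the result was not tested.

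Ccr2, the receptor of Ccl2, was also lower with IL-25 at each time, but its level with IL-25 at 48 and 72 h stood above that without IL-25 at 4 h. At 4 h it had 3.24, 1.63, 3.48 and 3.85 TPM with IL-25 and 6.49, 4.68, 6.27 and 4.98 TPM without. At 48 h it had 7.75, 10.05, 10.14 and 7.17 TPM with IL-25, against 33.4, 45.2, 51.4 and 43.7 TPM without. At 72 h it had 24.8, 28.9, 28 and 20.6 TPM with IL-25, against 76.0, 64.0, 94.7 and 104 TPM without. No 2 of its 6 culture groups that stood next to each other in level overlapped, from 3.05 ± 0.979 TPM with IL-25 at 4 h to 84.7 ± 18.04 TPM without it at 72 h (SD, n = 4 each). For Ccr2 the log2 fold change was -0.73 (SE 0.19, adjusted p = 0.00267) at 4 h, -2.18 (SE 0.19, adjusted p = 3.69e-10) at 48 h and -1.68 (SE 0.19, adjusted p = 5.1e-08) at 72 h. The call at 4 h did not pass after quantile normalization (log2 -0.40, adjusted p = 0.0602). Ccr2 rose with time also in the presence of IL-25, by log2 1.296 at 48 h against 4 h (adjusted p = 1.07e-06) and by 1.44 at 72 h against 48 h (adjusted p = 1.25e-06).

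**Figure D2:**
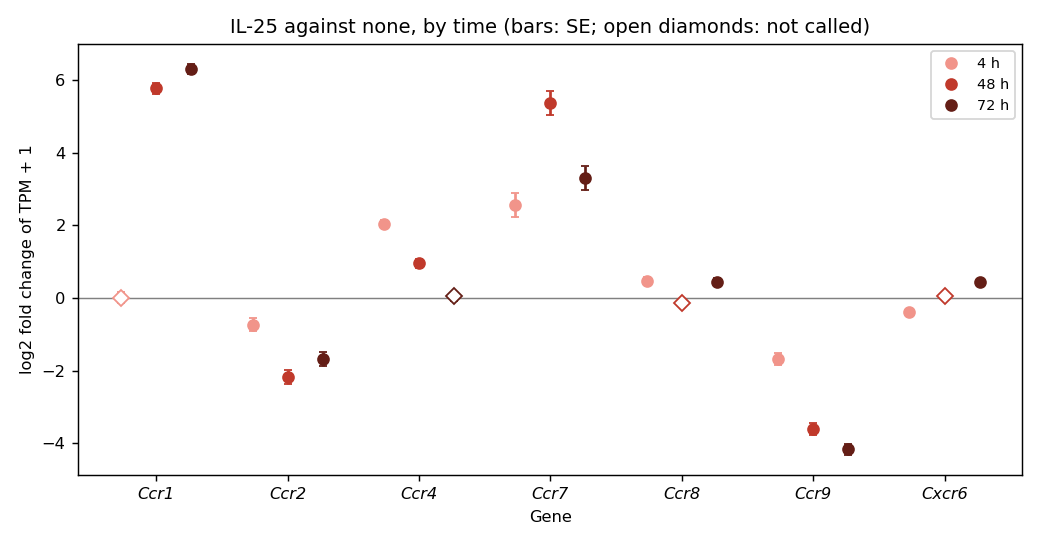
Log2 fold change of TPM + 1, IL-25 against none, for the 7 receptor genes at 4, 48 and 72 h; bars are the SE, filled points were called and open diamonds were not. Ccl1 is left out because it was listed at 0 in all libraries with IL-25 at 48 and 72 h. Ccr9 reaches -4.16 and Ccr1 6.30 at 72 h, while Ccr4 goes the other way in time, with 2.04 at 4 h and 0.04 at 72 h.

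Ccr4 and Ccl1 had their highest levels at 4 h, and their promoters are shown because both fell with culture time and each held 1 searched motif. The runs are from RefSeq (GRCm38.p6), 5′ to 3′ on the minus strand, at chr9:114496495-114496794 for Ccr4, whose start site in that table lies inside the gene's span, and chr11:82179763-82180062 for Ccl1. Capitals mark matches: in Ccr4 TGACTCA, the AP-1 motif, on the opposite strand at -143 to -137 from the start site, and in Ccl1 the NF-kB motif (GGG, then 3 bases of any kind, then TTCC) at -196 to -187 and, overlapping it on the opposite strand, at -195 to -186.
Ccr4: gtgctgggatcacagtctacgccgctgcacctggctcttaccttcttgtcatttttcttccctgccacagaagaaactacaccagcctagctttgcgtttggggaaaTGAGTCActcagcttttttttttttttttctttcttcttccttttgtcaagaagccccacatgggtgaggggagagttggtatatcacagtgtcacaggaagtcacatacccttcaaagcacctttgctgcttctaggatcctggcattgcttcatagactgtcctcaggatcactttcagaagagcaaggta
Ccl1: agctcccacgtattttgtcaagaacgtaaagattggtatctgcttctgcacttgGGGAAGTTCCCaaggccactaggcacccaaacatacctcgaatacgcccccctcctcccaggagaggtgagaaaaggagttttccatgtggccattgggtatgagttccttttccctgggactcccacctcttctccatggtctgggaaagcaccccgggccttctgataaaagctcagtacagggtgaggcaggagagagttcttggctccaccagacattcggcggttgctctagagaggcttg
On both strands, TGACTCA was held by 5.202% of the 32851 promoters of that table and the NF-kB motif by 5.555%. The GATA motif AGATAA, in 11.178% of all promoters, was found in those of Ccr2 (-97 to -92) and Ccr8 (-239 to -234). AGGTCA, the nuclear receptor half-site (16.255% of all), and the STAT motif TTCNNNGAA (8.298%) were in none of the 7 member promoters searched. These matches describe letters only.

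Ccr4, the receptor of Ccl17 and Ccl22, had 843, 769, 878 and 860.1 TPM with IL-25 at 4 h, against 198, 219, 203 and 189 TPM without, a 4.14-fold difference of the means. At 48 h it had 76.9, 61.4, 56.4 and 70.5 TPM with IL-25 and 39.8, 36.1, 35.3 and 25.0 TPM without. At 72 h the 36.1, 28.9, 31.7 and 26.3 TPM with IL-25 overlapped the 30.8, 28.3, 29.9 and 29.5 TPM without. The separation was thus widest at 4 h. Ccr4 had a log2 fold change of 2.04 (SE 0.11, adjusted p = 8.91e-13) at 4 h, 0.95 (SE 0.11, adjusted p = 1.44e-07) at 48 h and 0.04 (SE 0.11, adjusted p = 0.774) at 72 h. The effect at 48 h was lower than at 4 h (log2 -1.09, adjusted p = 8.91e-06) and the effect at 72 h lower than at 48 h (log2 -0.91, adjusted p = 0.000294). Across 48 h against 4 h, Ccr4 fell by 3.65 on the log2 scale with IL-25 (adjusted p = 4.97e-19) and by 2.55 without it (adjusted p = 8.57e-16), where the median of all genes moved by -0.24 and -0.28.

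Ccl1, the chemokine ligand of Ccr8, had 39.6, 45.6, 37.4 and 26.2 TPM with IL-25 at 4 h and 39.1, 43.8, 27.96 and 38.3 TPM without. The groups overlapped throughout their range (log2 -0.01, SE 0.26, adjusted p = 0.98). At 48 h Ccl1 was listed at 0 in all 4 libraries with IL-25, against 0, 0.73, 1.81 and 2.58 TPM without (adjusted p = 0.00173). At 72 h it was again listed at 0 in all 4 with IL-25, against 1.39, 1.14, 1.76 and 1.97 TPM without (adjusted p = 0.000128). No fold is given against a group listed at 0. The spread in these tests is shared by all culture groups, and the groups listed at 0 had none, which lowers it for Ccl1. Without IL-25, the 1.28 ± 1.14 TPM at 48 h stood against 37.3 ± 6.66 TPM at 4 h (SD, n = 4 each; log2 -4.21, adjusted p = 4.73e-13). The difference between the IL-25 effects at 48 and 4 h was called for Ccl1 (adjusted p = 0.0386), but a fit of the 4 groups involved gave an adjusted p of 0.074, and 10 of 16 fits without 1 library lost the call (adjusted p 0.000896 to 0.102 over all 16): those without replicate 3 of 4 h or replicates 3 or 4 of 48 h without IL-25, replicates 1, 2 or 3 of 4 h with IL-25, or any replicate of 48 h with IL-25.

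Ccr8, the receptor of Ccl1, held 79.5 to 161 TPM in every culture library. At 4 h it had 141, 144, 154 and 161 TPM with IL-25 and 94.4, 131, 117 and 93.3 TPM without, with no overlap. At 48 h the 102, 86.55, 91.2 and 114 TPM with IL-25 overlapped the 97.0, 111, 108 and 120.3 TPM without. At 72 h it had 122, 129, 113 and 124 TPM with IL-25, against 85.6, 100.2, 79.5 and 91.7 TPM without, again with no overlap. On the log2 scale Ccr8 differed by 0.47 (SE 0.10, adjusted p = 0.000643) at 4 h, -0.15 (SE 0.10, adjusted p = 0.239) at 48 h and 0.45 (SE 0.10, adjusted p = 0.000823) at 72 h. The value at 48 h was called after quantile normalization (log2 -0.26, adjusted p = 0.0311). The effect at 48 h was lower than at 4 h (log2 -0.62, adjusted p = 0.00191) and the effect at 72 h higher than at 48 h (log2 0.60, adjusted p = 0.00572). Across 48 h against 4 h without IL-25, where Ccl1 fell, Ccr8 differed by log2 0.01 (adjusted p = 0.926), and by 0.34 after rescaling by the median of ratios (adjusted p = 0.00551).

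Cxcr6, the receptor of Cxcl16, was the most abundant member in every culture group except IL-25 at 4 h, where Ccr4 stood above it. At 4 h it had 707, 713, 768 and 692 TPM with IL-25 and 935, 897, 1003 and 910.3 TPM without. At 48 h it had 975, 796, 853 and 933 TPM with IL-25 and 826, 816, 914 and 844 TPM without. At 72 h it had 1185, 1220.4, 1151 and 1298 TPM with IL-25, against 970.9, 762, 832 and 998 TPM without. The groups stood apart at 4 and 72 h, in opposite directions, and overlapped at 48 h. The log2 fold change was -0.38 (SE 0.07, adjusted p = 0.000186) at 4 h, 0.06 (SE 0.07, adjusted p = 0.511) at 48 h and 0.45 (SE 0.07, adjusted p = 1.58e-05) at 72 h, and quantile normalization turned the uncalled value at 48 h to -0.11. The differences between these effects were called, 0.44 for 48 h minus 4 h (adjusted p = 0.00206) and 0.39 for 72 h minus 48 h (adjusted p = 0.0111). Cxcr6 lies within the span of Fyco1, which was listed at 2.97 to 17.3 TPM in culture. The strand used in counting is not given in the sources used here, and whether reads of the 2 genes were shared was not tested.

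Over time without IL-25, 5 members were called at 48 h against 4 h (2 higher, 3 lower), when 64.4% of all genes were, 19.9% higher and 44.5% lower. These were Ccr2 (log2 2.74, adjusted p = 3.35e-12), Ccr9, Ccr4, Ccl1 and Ccr1, whose level stayed under 1 TPM in all 8 libraries (log2 -0.36, adjusted p = 0.0372) and whose call was lost after rescaling by the median of ratios (0.0874), with array weights (0.0608), in a fit of the compared groups only (0.0934) and without replicate 1 or 4 of 4 h or replicate 1 or 3 of 48 h (up to 0.168). With IL-25, 7 members were called at 48 h against 4 h (4 higher, 3 lower), beside 72.2% of all genes, 27.6% higher and 44.5% lower; the call of Cxcr6 among these (log2 0.30, adjusted p = 0.000782) was lost after quantile normalization (log2 0.09, adjusted p = 0.277). Between 72 and 48 h, only Ccr2 was called without IL-25 (log2 0.94, adjusted p = 0.022), where 0.379% of all genes were, 0.284% higher and 0.0948% lower. That call was lost with a pseudocount of 0.1 TPM (0.0597), in a fit of the compared groups only (0.133), and without replicate 1, 2 or 4 of 48 h or replicate 3 or 4 of 72 h (0.0539 to 0.102). With IL-25, 6 members were called between these times (4 higher, 2 lower) beside 31.2% of all genes, 13.4% higher and 17.9% lower, Ccr8 among them at log2 0.31 (adjusted p = 0.0218), which was lost without replicate 2 or 3 of 48 h or replicate 2 of 72 h (0.0631 to 0.0869). The IL-25 effect at 48 h differed from that at 4 h in all 8 members (3 higher, 5 lower), beside 27.9% of all genes, 17.2% higher and 10.7% lower, and the effect at 72 h from that at 48 h in 4 members (2 higher, 2 lower), beside 14.7%, 5.22% higher and 9.5% lower. For Ccr9 the difference at 72 h minus 48 h, -0.57, was called without replicate 2 of 72 h with IL-25 (-0.71, adjusted p = 0.031) and had an adjusted p of 0.05 without replicate 4 of 48 h with IL-25 (-0.68). Libraries of the 2 times did not overlap in 4 members at 48 h against 4 h without IL-25 (54.5% of all genes) and in 7 with it (64.8%), and in 1 at 72 h against 48 h without IL-25 (6.1%) and in 5 with it (32.2%). After rescaling by the median of ratios, higher genes made up 51.7% of all calls at 48 h against 4 h without IL-25 (30.8% before it) and 50.9% with it (38.3%), 31.9% (75%) and 53.4% (42.9%) at 72 h against 48 h, and 59% (35.5%) for the IL-25 effect at 72 h minus 48 h. These comparisons share libraries.

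Of the 7 receptor genes, 6 lie on chromosome 9. From the start of Ccr9 to the end of Ccr2, chr9:123767211-124109140, a span of 341.9 kb holds 11 annotated genes, 8 of them protein coding, and includes Ccr9, Cxcr6, Ccr1 and Ccr2. Against none at 48 h, genes there differed in direction, as Ccr9 and Ccr2 were lower with IL-25 and Ccr1 was higher. Cxcr6, which lies between Ccr9 and Ccr1, was not called (log2 0.06, adjusted p = 0.511). Among the other receptor genes of that span, Ccr3, an eosinophil receptor, had 1.27 ± 0.149 TPM with IL-25 and 0.09 ± 0.0698 TPM without at 48 h (SD, n = 4 each; log2 1.06, adjusted p = 6.67e-05), and Xcr1, known from dendritic cells, had 11.1 ± 2.03 and 5.16 ± 0.456 TPM (log2 0.96, adjusted p = 2.58e-05). Ccr1 and Ccr3 are related in sequence, and whether reads were shared between receptor genes of the cluster was not tested. Ccr4 (chr9:114490316-114505476) and Ccr8 (chr9:120092133-120094906) lie outside that span, and Ccl1 (chr11:82176666-82179812) and Ccr7 (chr11:99144199-99155077) on chromosome 11.

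**Figure D3:**
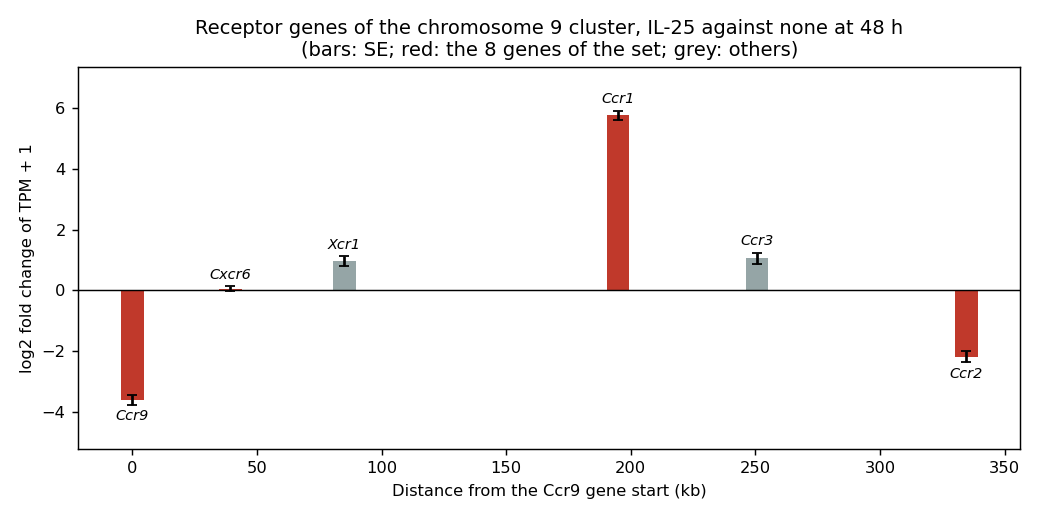
Log2 fold change of TPM + 1, IL-25 against none at 48 h, of the tested receptor genes from Ccr9 to Ccr2, placed by distance from the start of Ccr9 in kb; bars on each column are the SE. Red marks genes of the set and grey other receptor genes. Ccr9 at 0 kb is at -3.60, Ccr1 at 194.9 kb at 5.77 and Ccr2 at 334.7 kb at -2.18.

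Over the 24 culture libraries, which share 6 groups, log2(TPM + 1) of the members was described by Pearson correlation. Ccr4 went with Ccl1 (r = 0.85) and against Ccr2 (r = -0.87), Ccr1 with Ccr7 (r = 0.83), Ccr9 with Ccr2 (r = 0.71) and against Ccr7 (r = -0.77). Among all tested genes, the pattern of Ccr1 was most like those of Ermn, Ctla4 and Il10 (r = 0.99 each), and that of Ccr4 like those of Myc, Utf1 and Eif5 (r = 0.99, 0.99 and 0.98). Ccr9 was closest to Tmem176a, Hba-a1 and Tspan32 (r = 0.98, 0.97 and 0.97), Ccl1 to Prag1, Fnbp4 and Bcl2l11 (r = 0.99, 0.98 and 0.98), and Ccr2 to Actn2, Atp5h and Hexa (r = 0.97, 0.96 and 0.96). For Ccr7 they were Ppme1, Fabp5 and Got1 (r = 0.96, 0.95 and 0.94), for Cxcr6 Sash3, Cyb5a and Os9 (r = 0.90, 0.89 and 0.89), and for Ccr8 Sytl3, Icam1 and Mex3a (r = 0.84, 0.81 and 0.81).

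Few other chemokine receptor genes were listed. For the lists in culture, rose and fell mean higher and lower with IL-25 than without it at the same time. Of 17 on that list, 5 were tested in culture, of which 3 rose and 1 fell with IL-25 at 48 h and likewise at 72 h, when Xcr1 had 16.3 ± 1.88 TPM with IL-25 and 3.87 ± 1.23 TPM without (log2 1.86, adjusted p = 8.19e-10). At 4 h 1 rose, Xcr1 (13.1 ± 0.598 TPM with IL-25 and 7.09 ± 0.840 TPM without, adjusted p = 0.000312), and 1 fell, the atypical receptor Ccrl2 (6.33 ± 2.39 and 11.003 ± 2.94 TPM, adjusted p = 0.0104). Of 13 ligands of the member receptors, 5 were tested, of which 2 rose at 4 h and none was called at 48 or 72 h. Ccl3, a ligand of Ccr1, was 1 of these, with 13.1 ± 5.83 TPM with IL-25 and 6.41 ± 2.91 TPM without at 4 h (log2 0.91, adjusted p = 0.0407), and Ccl25, the ligand of Ccr9, had 13.1 ± 1.66 and 12.6 ± 2.27 TPM. Of 21 other chemokines, 3 were tested and all 3 rose at 4 h: Cxcl3 (141 ± 6.28 TPM with IL-25 and 34.0 ± 8.16 TPM without, log2 2.05, adjusted p = 6.12e-06), Cxcl10 (13.95 ± 4.80 and 5.08 ± 3.23 TPM, adjusted p = 0.0036) and Cxcl2 (54.0 ± 31.8 and 16.1 ± 3.62 TPM, adjusted p = 0.000812). At 48 h 1 of these fell and at 72 h 2. The median log2 fold change of the other receptors was 0.19, 0.96 and 1.86 at 4, 48 and 72 h, and that of all genes was -0.12, -0.09 and -0.20, with the shares called as given above for the members.

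Downstream of the receptors, all 26 signalling genes were tested. At 4 h 14 fell and 1 rose, led by Prex1, a Rac exchange factor (15.2 ± 3.43 TPM with IL-25 and 39.1 ± 5.02 TPM without), and the G protein subunits Gng2 and Gnai2. At 48 h 6 rose and 9 fell: Rac1, a GTPase of cell movement, had 103 ± 15.1 TPM with IL-25 and 39.3 ± 12.5 TPM without (log2 1.40, adjusted p = 7.23e-07), the kinase subunit gene Pik3cg rose by log2 1.53, and Dock2, a Rac exchange factor of lymphocytes, fell by 1.01. At 72 h 7 rose and 7 fell. Of all genes, 13.4% rose and 26.9% fell at 4 h, 21.4% and 28.7% at 48 h, and 15.3% and 33.2% at 72 h. The median log2 fold change of the list was -0.24, -0.13 and 0.02 at the 3 times, against -0.12, -0.09 and -0.20 over all genes.

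Of 16 desensitization genes, whose products switch receptors or their G proteins off, 13 were tested, of which 8 fell and none rose at 4 h, and 7 fell and 2 rose at 48 h and at 72 h. Over all genes 26.9% fell and 13.4% rose at 4 h, 28.7% and 21.4% at 48 h, and 33.2% and 15.3% at 72 h. Rgs10 had 58.3 ± 7.02 TPM with IL-25 and 184 ± 21.6 TPM without at 4 h (log2 -1.64, adjusted p = 1.16e-12) and fell by 1.65 at 48 h. Rgs18 had 0.195 ± 0.179 TPM with IL-25 and 17.7 ± 2.43 TPM without at 48 h (log2 -3.97, adjusted p = 5.16e-14). Rgs1 changed direction with time: at 4 h it had 212 ± 17.6 TPM with IL-25 and 428 ± 54.1 TPM without, and fell by 1.00 on the log2 scale (adjusted p = 3.6e-10), and at 72 h it had 1159 ± 112 TPM with IL-25 and 350 ± 23.6 TPM without (log2 1.72, adjusted p = 3.63e-15).

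In primary cells, iILC2 and nILC2 differed in every listed member. Ccr9 was higher in iILC2 and the other 6 genes, Ccr2, Ccr4, Ccr7, Ccr8, Cxcr6 and Ccl1, were lower, in CTRL and in KO alike. In CTRL 7 of 7 members were called (1 higher, 6 lower), where 45.5% of all genes were, 21.9% higher and 23.6% lower. In KO again 7 were called (1 higher, 6 lower), where 31.4% of all genes were, 13.8% higher and 17.6% lower. The median log2 fold change of the members was -2.51 in CTRL and -2.16 in KO, against -0.03 and -0.05 over all genes. In no member did libraries of iILC2 and nILC2 of the same genotype overlap, a state found for 41.8% of all genes in CTRL and 30.6% in KO.

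Ccr9 had 945, 866, 789 and 761 TPM in iILC2 CTRL, against 277, 309, 243 and 258 TPM in nILC2 CTRL. In KO it had 720.4, 705, 600.1 and 743 TPM in iILC2, against 257, 302, 274 and 257 TPM in nILC2. All 8 iILC2 libraries lay above all 8 of nILC2. It was higher by log2 1.63 in CTRL (SE 0.09, adjusted p = 1.23e-10) and by 1.34 in KO (SE 0.09, adjusted p = 3.59e-09).

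Ccr4 had 40.6, 34.6, 31.85 and 35.7 TPM in iILC2 CTRL, against 216, 185, 219.6 and 224 TPM in nILC2 CTRL. In KO it had 43.5, 33.5, 35.1 and 37.1 TPM in iILC2, against 226.5, 164, 161 and 171 TPM in nILC2. The fall was thus to similar levels in both genotypes (log2 -2.53, adjusted p = 1.19e-11 in CTRL and -2.24, adjusted p = 1.45e-10 in KO). Ccl1 was listed at 0 in all 8 iILC2 libraries. In nILC2 it had 9.13, 3.43, 2.42 and 2.05 TPM in KO and 10.4, 15.2, 25.4 and 11.4 TPM in CTRL, and the iILC2 difference was called in both genotypes (adjusted p = 2.21e-05 in KO and 8.39e-09 in CTRL).

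Cxcr6 had 195, 164, 127 and 129 TPM in iILC2 CTRL and 459.8, 415, 527 and 420.4 TPM in nILC2 CTRL (log2 -1.58, adjusted p = 4.68e-07). Fyco1, whose span holds that of Cxcr6, had 3.19 to 14.3 TPM over these libraries. Ccr8 had 9.75, 10.4, 4.62 and 9.15 TPM in iILC2 CTRL and 45.9, 73.65, 55.6 and 35.7 TPM in nILC2 CTRL (log2 -2.51, adjusted p = 1.01e-06), so receptor and ligand of the Ccr8 and Ccl1 pair were both lower in iILC2. Ccr7 had 4.88, 13.5, 8.92 and 11.1 TPM in iILC2 CTRL and 38.1, 36.5, 47.6 and 37.5 TPM in nILC2 CTRL (log2 -2.02, adjusted p = 6.47e-05). Ccr2 had 3.83, 4.52, 2.79 and 4.38 TPM in iILC2 CTRL and 28.2, 38.3, 48.05 and 33.0 TPM in nILC2 CTRL (log2 -2.95, adjusted p = 4.48e-07).

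In KO, the same 4 receptors fell by 1.00 (Cxcr6, adjusted p = 0.000173), 1.98 (Ccr8, adjusted p = 3.25e-05), 2.59 (Ccr7, adjusted p = 9.36e-06) and 2.16 (Ccr2, adjusted p = 3.59e-05) on the log2 scale. Beside these differences, the 2 listed monocyte and macrophage markers, Itgam and Cd68, summed to 8.34 to 13.7 TPM in iILC2 CTRL and 0.79 to 4.0 TPM in nILC2 CTRL, the 2 listed T cell markers, Cd3g and Cd5, to 6.97 to 25.2 and 50.5 to 83.2 TPM, the 1 listed B cell marker of 6, Cd79b, to 238 to 282 and 117 to 154 TPM, and the 10 ILC2 markers to 1053 to 1127 and 2417 to 2745 TPM. Their part in the result was not tested.

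**Figure D4:**
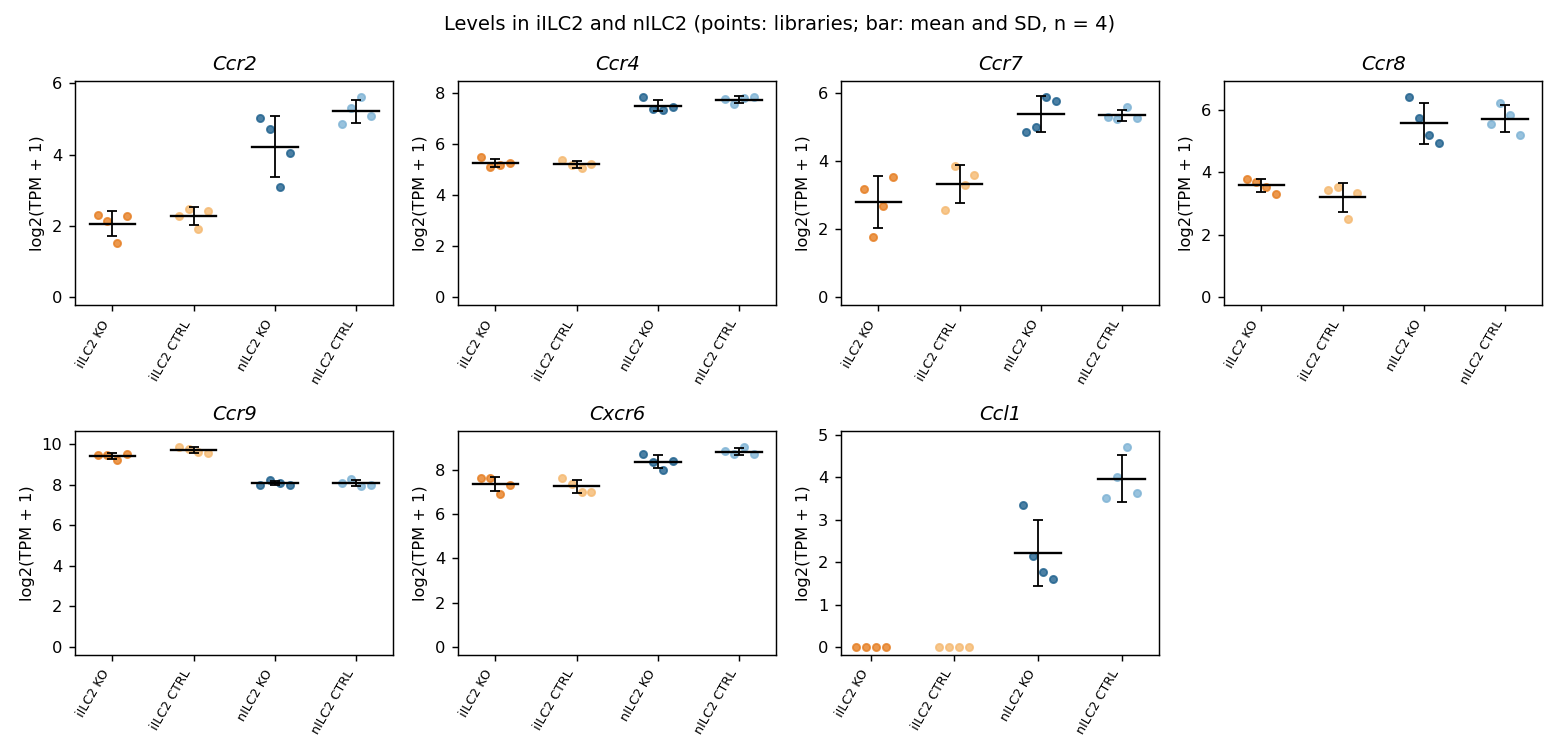
Level of each listed member in the 16 primary cell libraries, as log2(TPM + 1), for iILC2 KO, iILC2 CTRL, nILC2 KO and nILC2 CTRL. Points are libraries and bars are the mean and SD of n = 4; Ccl1 in iILC2, listed at 0, has points only. Ccr9 is higher in iILC2 and the other 6 genes are lower, and KO and CTRL overlap in nILC2 in all genes but Ccl1.

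The comparison of KO with CTRL asks whether loss of Rxrg moved these genes. In nILC2 1 member was called, Ccl1, where 1.54% of all genes were, 0.943% higher and 0.596% lower; higher genes made up 61.3% of these calls (74.8% under median-of-ratios scaling). Its 4.26 ± 3.30 TPM in KO stood against 15.6 ± 6.84 TPM in CTRL (SD, n = 4 each), with every KO library below every CTRL library, and the log2 fold change was -1.75 (SE 0.30, adjusted p = 0.00979). Of all genes, 6.34% had nILC2 libraries of KO and CTRL that did not overlap. Fitted on the 8 nILC2 libraries alone, the call did not pass (adjusted p = 0.123), while it held without each library in turn (adjusted p 0.000163 to 0.0484) and with a term for Y-linked expression. The main fit and the fits that kept the call share 1 spread per gene over both populations. Ccl1, listed at 0 throughout iILC2, had no spread there, which lowers that shared spread, so these fits do not offset the nILC2 fit. Among libraries with Y-linked expression Ccl1 averaged 2.24 TPM in KO and 15.7 TPM in CTRL, and among those without it 6.28 TPM in KO and 15.2 TPM in the 1 CTRL library. The 10 ILC2 markers summed to 1752 to 2404 TPM in nILC2 KO and 2417 to 2745 TPM in nILC2 CTRL, with 3 of them called lower, and the 2 listed epithelial markers of 6, Epcam and Krt18, to 12.01 to 16.5 and 18.4 to 30.4 TPM, with 1 called lower. Their part in the result was not tested.

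The other 6 listed members were not called in nILC2. Ccr2 had 31.8, 25.3, 7.60 and 15.6 TPM in KO and 28.2, 38.3, 48.05 and 33.0 TPM in CTRL (log2 -0.99, SE 0.31, adjusted p = 0.0986). Cxcr6 had 418, 331, 252 and 333 TPM in KO and 459.8, 415, 527 and 420.4 TPM in CTRL (log2 -0.46, SE 0.17, adjusted p = 0.138), and Ccr4 differed by log2 -0.23 (SE 0.11, adjusted p = 0.269). In all 3 the highest KO library was replicate 1. Without that library Ccr2 (log2 -1.26, adjusted p = 0.0153), Cxcr6 (log2 -0.58, adjusted p = 0.0383) and Ccr4 (log2 -0.35, adjusted p = 0.04) were called too, which made 4 members, in a fit that called 1003 of 10052 genes, where the fit of all libraries called 155 of 10069. Among libraries with Y-linked expression, the nILC2 means in KO and CTRL were 11.6 and 36.4 TPM for Ccr2, 293 and 469 TPM for Cxcr6 and 166 and 220.0 TPM for Ccr4, and among those without it 28.6 and 38.3 TPM, 375 and 415 TPM, and 195 and 185 TPM, so the direction of Ccr4 did not hold within both. The same was so for Ccr7 (56.0 and 41.0 TPM with it, 29.7 and 36.5 TPM without) and for Ccr9 (265 and 259 TPM with it, 280 and 309 TPM without). Each CTRL value without it is that of 1 library. Over all libraries, Ccr9 had the same mean in KO and CTRL, 272 TPM (log2 0.01, SE 0.09, adjusted p = 0.979), Ccr8 had 83.4, 51.96, 35.2 and 29.5 TPM in KO and 45.9, 73.65, 55.6 and 35.7 TPM in CTRL (log2 -0.14, SE 0.28, adjusted p = 0.827), and Ccr7 had 28.3, 31.05, 58.1 and 53.9 TPM in KO and 38.1, 36.5, 47.6 and 37.5 TPM in CTRL (log2 0.04, SE 0.33, adjusted p = 0.966).

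In iILC2 no member was called between KO and CTRL, and no gene at all (limma, 0% of 10069, and 0 in each alternative run). At an unadjusted p under 0.05 there were 328 genes, 3.26% of those tested, and 1 member, Ccr9. It had 720.4, 705, 600.1 and 743 TPM in KO and 945, 866, 789 and 761 TPM in CTRL, with no overlap, a state found for 2.94% of all genes (log2 -0.28, SE 0.09, adjusted p = 1). The KO mean was lower by a similar amount in libraries with Y-linked expression (671 TPM in KO and 832 TPM in CTRL) and without it (713 and 866 TPM, the latter from 1 library). Ccr7 differed by log2 -0.53 (SE 0.33), Ccr8 by 0.38 (SE 0.28), Ccr2 by -0.20 (SE 0.31), Cxcr6 by 0.12 (SE 0.17) and Ccr4 by 0.06 (SE 0.11), each with an adjusted p of 1.

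Whether the KO effect differed between iILC2 and nILC2 was tested directly, and no gene was called (0% of 10069). At an unadjusted p under 0.05 there were 1059 genes, 10.5%, and 3 members, Ccr9, Cxcr6 and Ccl1. For Ccl1, listed at 0 in iILC2, the adjusted p was 0.211. It was 0.0311 with array weights and 0.0089 without replicate 1 of nILC2 KO.

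**Figure D5:**
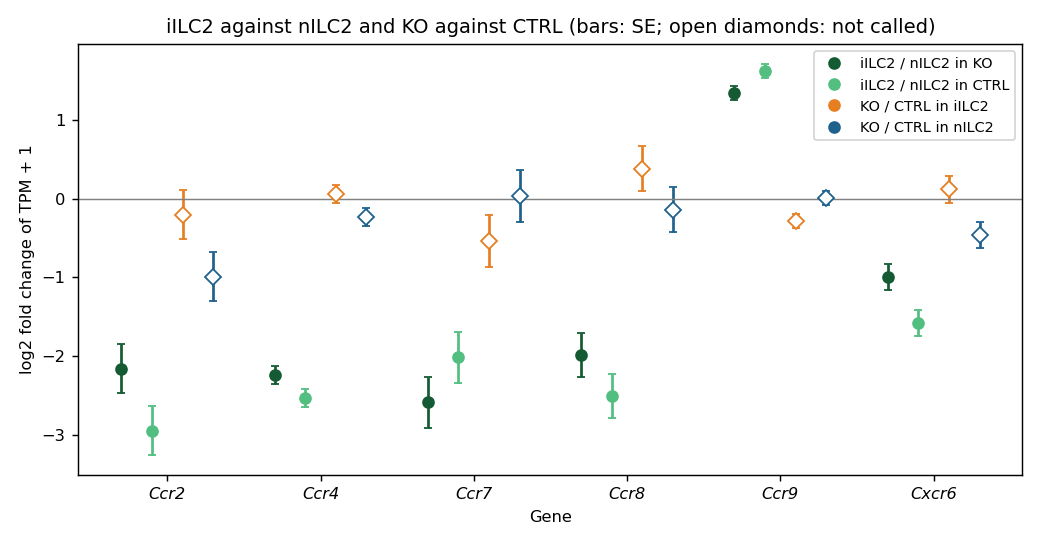
Log2 fold change of TPM + 1 of the 6 receptor genes listed in the genotype table, for iILC2 against nILC2 in KO and CTRL (green) and for KO against CTRL in iILC2 (orange) and nILC2 (blue); bars are the SE, filled points were called and open diamonds were not. The population differences reach from -2.95 for Ccr2 to 1.63 for Ccr9, and no receptor gene was called between KO and CTRL.

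Of the related lists, 5 other receptor genes were tested in the genotype table and none was called between KO and CTRL in either population. Of the 2 listed ligands, Ccl5, a ligand of Ccr1, was lower in nILC2 KO (24.9 ± 6.04 TPM) than in nILC2 CTRL (48.6 ± 8.60 TPM; log2 -0.96, adjusted p = 0.0301) and lower in iILC2 CTRL (25.8 ± 6.69 TPM) than in nILC2 CTRL (log2 -0.90, adjusted p = 0.00112). The 26 signalling genes held no call between KO and CTRL in either population, and in CTRL 14 were higher and 6 lower in iILC2 than in nILC2 (21.9% and 23.6% of all genes), with Prex1 at 77.8 ± 8.05 TPM in iILC2 and 39.5 ± 2.92 TPM in nILC2 (log2 0.96, adjusted p = 1.16e-06). Of the 13 tested desensitization genes 1 fell in nILC2 KO, Rgs1, with 220.0 ± 20.2 TPM in KO and 355 ± 61.2 TPM in CTRL (log2 -0.68, adjusted p = 0.0446), and in CTRL 2 were higher and 7 lower in iILC2 than in nILC2. Rgs1 had 57.2 ± 13.5 TPM and Rgs18 0.378 ± 0.210 TPM in iILC2 CTRL, against 355 ± 61.2 and 27 ± 2.41 TPM in nILC2 CTRL. All 3 tested other chemokines were lower in iILC2 than in nILC2 in CTRL.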

How the data were processed

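The authors deposited TPM per gene in 2 tables, of 24 culture and of 16 nILC2 and iILC2 libraries, normalized separately, so tests stay within a table. The culture table's own name gives another middle time than the 48 h of its column names and labels, which were used. The submitters' processing notes name RSEM 1.3.3, STAR 2.7.5c, cutadapt 2.10 and the build mm10; the authors' filter on genes is not given in the sources used here. Summed TPM was 873200 to 898025 in culture libraries and 849733 to 886670 in the others. Depth is unknown, so no counting error or floor is given. Of 54 samples, 14 chromatin samples were not analysed here.

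Fits used limma 3.58.1 under R 4.3.3, with variances moderated along a trend in the mean level, on each table as log2(TPM + 1), a mean for each group, no replicate block, and Benjamini-Hochberg adjustment over all genes with at least 1 TPM in 4 libraries. Genes listed at 0 in a whole group get no fold against it. The procedure was tested on simulated data. The members, lists, motifs and tests were chosen with earlier results of these data known. All 8 members were named in every group, with up to 3 called examples per list (largest absolute log2 fold change, at least 10 TPM in the higher group) and the 3 genes most correlated with each member; Ccr3, Ccl25, Fyco1, Rxrg, the Y-linked genes and the members of the marker lists were named outside that rule.

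Promoters, coordinates and symbols came from RefSeq (GRCm38.p6). Same-numbered libraries deviated together by the rule used (r over 0.1 for every number) only between nILC2 KO and iILC2 KO, with r = 0.188, 0.102, 0.231 and 0.145, while the labels state no pairing. Libraries of different numbers were not correlated, so these values cannot show whether numbers pair libraries. Within each genotype, iILC2 and nILC2 libraries of the same number also matched in having or lacking Y-linked expression. The main fits took these libraries as unpaired, and whether numbers pair them was not tested. Alternatives were a pseudocount of 0.1 TPM, no filter, a minimum of 5 TPM, array weights, median-of-ratios scaling, a replicate block, quantile normalization, the compared groups alone, a term for Y-linked expression (the 4 genes together at 5 TPM or more) in the genotype table, and leaving out each library.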

Additional observations from a re-analysis of the deposited data

Results flagged for a closer look

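In 72 groups of 4 libraries, 2 held a library far from the other 3 by Dixon's criterion (the gap to the nearest of the others, over the group's range), about as many as the 1 in 20 groups that chance gives. Ccr4 reached 226.5 TPM in replicate 1 of nILC2 KO, with the gap at 0.846 of the range. Ccr7 reached 47.58 TPM in replicate 3 of nILC2 CTRL, with the gap at 0.859.

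The effect of IL-25 differed between culture times in 12 tests of the difference itself. At 48 h minus 4 h it was 5.76 for Ccr1, -1.45 for Ccr2, -1.09 for Ccr4, 2.81 for Ccr7, -0.62 for Ccr8, -1.91 for Ccr9, 0.44 for Cxcr6 and -1.02 for Ccl1 on the log2 scale. The value of Ccl1 depends on the pseudocount, since it was listed at 0 with IL-25 at 48 h. At 72 h minus 48 h it was -0.91 for Ccr4, -2.06 for Ccr7, 0.60 for Ccr8 and 0.39 for Cxcr6.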

How the results depend on the processing

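Of 105 member results, 65 were called, and 32 changed call or sign under at least 1 alternative; no called result reversed. The number of called members at 72 h against 48 h without IL-25 (1, Ccr2) was 0 with a pseudocount of 0.1 TPM and in the fit of the compared groups alone, and 0 to 1 without 1 library. For KO against CTRL in nILC2 it was 1, 0 in the fit of the compared groups alone, and 1 to 4 without 1 library. For the KO effect in iILC2 minus nILC2 it was 0, 1 with array weights, and 0 to 1 without 1 library. With the replicate block, the number of called members was as in the fit without it in all 14 comparisons, 7 for iILC2 against nILC2 in KO among them. That was the 1 comparison whose same-numbered libraries met the rule on r. The block joins each replicate number across all groups of its table, so it does not test pairing within a genotype. Over all genes, KO against CTRL in nILC2 gave 155 calls, 82 with a pseudocount of 0.1 TPM, 270 after rescaling by the median of ratios, 275 with array weights, 317 with the replicate block, 87 with the Y-linked term, 5 in the fit of the compared groups alone, and 12 to 1003 in the 8 fits without 1 library (12 without replicate 4 of nILC2 CTRL, 1003 without replicate 1 of nILC2 KO), each over 1.5 times away from 155. For the KO effect in iILC2 minus nILC2, 0 calls became up to 21 (array weights) and 132 without that library, and for 72 h against 48 h without IL-25 the 40 calls became 1 in the fit of the compared groups alone, 26 with a pseudocount of 0.1 TPM, 64 with array weights, 86 after quantile normalization, and 11 to 49 without 1 library (11, 12, 17, 21, 22 and 26 without replicate 3 of 72 h, 2 of 48 h, 4 of 72 h, 1 of 48 h, 4 of 48 h and 2 of 72 h).

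Uncalled values that changed sign were Ccl1 with IL-25 at 4 h (0.13 after rescaling by the median of ratios, 0.12 after quantile normalization), Ccr9 for KO in nILC2 (-0.13 after quantile normalization, -0.0219 with the Y-linked term), Cxcr6 at 48 h against 4 h without IL-25 (0.19 after rescaling, adjusted p = 0.0314, while -0.33 after quantile normalization and -0.14 in the fit of the compared groups alone were called as a fall, adjusted p = 0.00027 and 0.0499) and at 72 h against 48 h (-0.0029 after rescaling), and Cxcr6 with IL-25 at 48 h (-0.11 after quantile normalization). Without 1 library, sign changes lay within -0.0263 to 0.59 for Ccl1 at 72 h against 48 h without IL-25, -0.14 to 0.14 for Ccl1 with IL-25 at 4 h, -0.59 to 0.0263 for the change of its IL-25 effect at 72 h minus 48 h, -0.0816 to 0.13 for Ccr1 with IL-25 at 4 h, -0.0342 to 0.11 for Ccr4 with IL-25 at 72 h, -0.0137 to 0.12 for Ccr4 and KO in iILC2, -0.51 to 0.0488 for Ccr7 at 72 h against 48 h without IL-25, -0.13 to 0.21 for Ccr7 and KO in nILC2, -0.0569 to 0.11 for Ccr8 at 48 h against 4 h without IL-25, -0.42 to 0.0693 for Ccr8 and KO in nILC2, -0.0399 to 0.14 and -0.34 to 0.0126 for Ccr9 with IL-25 at 48 h against 4 h and 72 h against 48 h, and -0.0451 to 0.071 for Ccr9 and KO in nILC2. The cause of these changes was not tested. Since TPM keep no depth, whether a gene listed at 0 was absent was not detectable.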

Other observations

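Within nILC2 KO, the 2 libraries with and the 2 without Y-linked expression did not overlap in Ccr2 (7.60 to 15.6 TPM with it, 25.3 to 31.8 TPM without), Ccr7 (53.9 to 58.1 and 28.3 to 31.1 TPM) or Ccr8 (29.5 to 35.2 and 51.96 to 83.4 TPM). Nor did they overlap in Ccl1, the member called for KO in nILC2 (2.05 to 2.42 TPM with it, 3.43 to 9.13 TPM without). The same libraries overlapped in Ccr4 (161.3 to 171.3 TPM with it, 164.4 to 226.5 TPM without). They also overlapped in Ccr9 (257.2 to 273.7 and 256.6 to 302.4 TPM) and Cxcr6 (251.8 to 333.3 and 331.2 to 418.0 TPM). With 2 libraries on each side, a lack of overlap is common by chance, and its share over all genes was not computed. In nILC2 CTRL the 1 library without Y-linked expression had 38.3 TPM of Ccr2, within the 28.2 to 48.1 TPM of the 3 with it, and 73.7 TPM of Ccr8, above their 35.7 to 55.6 TPM. For Ccl1 that CTRL library had 15.2 TPM, within the 10.4 to 25.4 TPM of those with it. These groups were formed from the data and hold too few libraries for a test.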
